A study of Citrullus lanatus with 12 samples.

Results

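The net change of messenger RNA from microspore to mature pollen was measured by comparing whole anthers of watermelon (Citrullus lanatus) at the mature stage with anthers at the mononuclear stage, over all genes. The comparison used 6 of the 12 RNA sequencing libraries of the series, 3 mature and 3 mononuclear. The remaining 6 libraries came from tetrad and dikaryophase anthers and are used here for the shared estimate of spread and to place each change in the course of development. All anthers came from plants of 1 background, the progeny of the variety Xinteda Zhengkang 9, grown in a greenhouse with no treatment named. Each anther was staged under the microscope on a part of its tissue and RNA was extracted from the rest. The labels do not say whether the libraries of a stage came from separate plants, so the p-values measure the spread between these samples only.

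After meiosis, young microspores leave the tetrad, enlarge around a single nucleus and then divide unequally into a vegetative cell, which later grows the pollen tube, and a generative cell, which gives rise to the sperm cells. The tapetum, the innermost layer of the anther wall, feeds the microspores and supplies material for the pollen coat, and it breaks down as the grains ripen. Ripening pollen is known for storing RNA and reserves for germination and tube growth. An anther library holds wall, tapetum and pollen together, and in such bulk tissue fewer cells of a type and less RNA per cell cannot be told apart. The table gives gene IDs without names, so no gene is given a function here, the labelled tissue could not be checked against marker genes, and gene groups are described by their level and time course.

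The 6 libraries held 55347640 to 65554998 reads assigned to genes. The values below are normalised reads, that is reads divided by a factor for the library. They are not divided by gene length, so levels are compared between stages and not between genes. Of 23440 gene IDs, 17484 reached 1 CPM (55.3 to 65.6 reads, in proportion to the library total) in at least 3 of the 12 libraries and were tested. Log2 levels over these genes correlated with a mean Pearson r of 0.970 over the 3 pairs of mature libraries, 0.956 over the 3 pairs of mononuclear libraries and 0.766 over the 9 pairs across the stages. These are correlations across genes, given as a description.

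Mononuclear replicate 2 stood apart from the other libraries of its stage, as it carried reads of genes that were otherwise typical of mature anthers. Among 160 genes with at least 500 normalised reads in every mature library and at least 50-fold less in mononuclear replicates 1 and 3, the median level in mononuclear replicate 2 was 1.57% of the mature mean, against 0.0163% in replicate 1 and 0.0227% in replicate 3. Replicate 2 had no part in choosing these genes, which favours a higher level there. Results that rest on this library are given with and without it, and the spread among the mature libraries is given beside the genes it concerns.

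Mature anthers differed from mononuclear anthers in 2705 genes, 15.5% of those tested, in nearly equal numbers each way: 1342 rose (7.68%) and 1363 fell (7.8%). A gene was called with a limma adjusted p (Benjamini-Hochberg) under 0.05 and a log2 fold change of at least 1 in either direction. The mature libraries lay all above the mononuclear ones in 21.7% of all genes tested and all below them in 22.1%, which makes 43.8% without overlap. Of the called genes 1326 rises and 1340 falls did not overlap, which calling itself selects for. A log2 fold change from 1 to under 2 was found in 635 of the rises and 766 of the falls, and the tail was longer among the rises. A log2 fold change of at least 2 was reached by 707 rises (4.04% of genes tested) and 597 falls (3.41%), and one of at least 3 by 472 rises (2.7%) and 334 falls (1.91%). Past 5 there were 253 rises (1.45%) and 148 falls (0.846%). The median log2 fold change was 2.15 over the rises and -1.77 over the falls, against -0.0033 over all genes tested. Setting the 31 rises and 39 falls with no read at the lower stage to their lower bounds left both medians at these values. With mononuclear replicate 2 left out, 1331 genes rose and 1316 fell, with 277 and 135 of them past a log2 fold change of 5, and without both that library and mature replicate 3 they were 1397 and 1337, with 293 and 142.

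**Figure D1:**
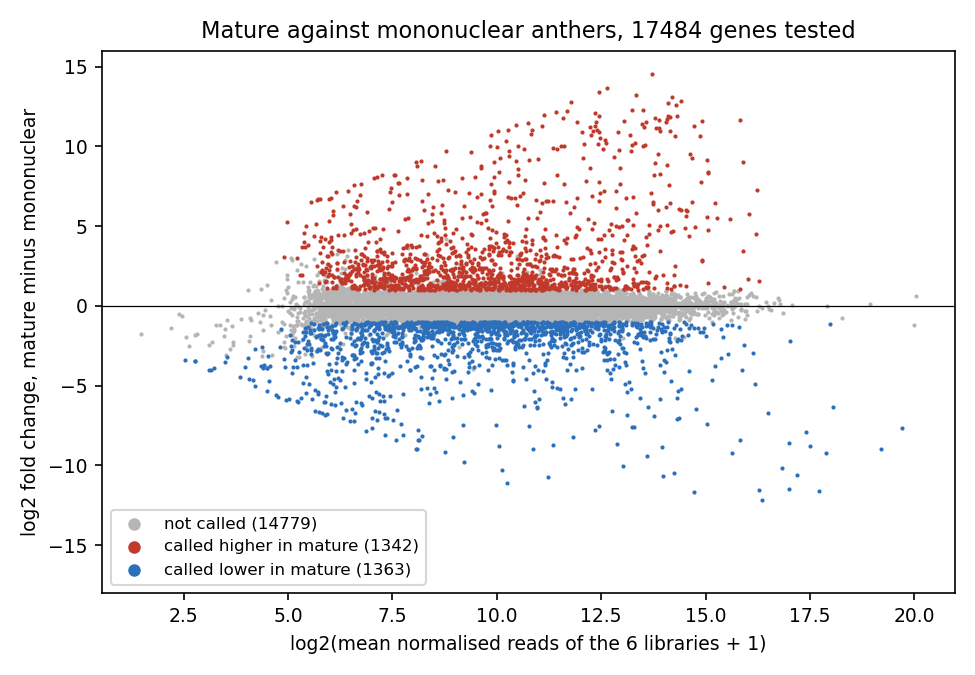
Log2 fold change of mature minus mononuclear anthers (vertical axis) against level (horizontal axis, log2 of the mean normalised reads of the 6 libraries + 1), 1 point per gene tested. The 1342 genes called higher and the 1363 called lower spread over a wide range of levels, and the falls reach down to -12.16 (Cla021856).

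A larger set of 5996 genes (34.3%) passed the adjusted p alone, 2980 of them higher (17%) and 3016 lower (17.3%), and 3291 of them changed by less than a log2 fold change of 1. Against that, 11513 genes (65.8%) had a 95% interval of the log2 fold change that lay within -1 and 1, so for most genes a change of more than 2-fold was outside the interval. The median standard error was 0.17 on the log2 scale. The share of genes called differed with their level. Among genes with a mean of 10 to 100 CPM over the 12 libraries, 5.50% rose and 5.80% fell, and among those of 100 to 1000 CPM 6.79% rose and 8.20% fell. At 1 to 10 CPM the shares were 12.1% and 10.5%. Genes of this bin can also have passed the filter through 1 stage where they were high, so nothing is read from these larger shares. The 406 genes with a mean under 1 CPM had passed the filter through the libraries where they were high, and nothing is read from their calls. Their 70 rises and 85 falls remain in the total counts. The 47 genes above 1000 CPM held 1 called rise and 21 called falls. As this mean covers all 12 libraries, a gene high at maturity alone enters the bin less readily than one high at several stages. Nothing is therefore read from the direction of these calls. The median standard error was 0.28 at 1 to 10 CPM and also 0.28 above 1000 CPM, against 0.15 and 0.14 in the bins between, so the most abundant genes were also among the more variable.

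Reads were spread over more genes in mature anthers. The 10 most abundant genes of a library took 6.10% ± 0.618 of the reads in mature libraries and 12.0% ± 1.31 in mononuclear libraries (SD, n = 3 each). The range was 5.38% to 6.48% in mature and 11.2% to 13.6% in mononuclear libraries, with no overlap. It took 1363 ± 81.8 genes to hold 50% of the reads in mature libraries and 1018 ± 105 in mononuclear libraries. The number of genes at 1 CPM or more was 16795 ± 42.0 in mature and 16614 ± 124 in mononuclear libraries. Genes with at least 1 read numbered 19172 ± 46.8 in mature and 19084 ± 96.5 in mononuclear libraries, and these ranges overlapped. With 3 libraries against 3, an exact two-sided permutation test over the 20 groupings can reach no p below 0.1. That value was obtained for the first 3 measures and for the share of the 100 most abundant genes (adjusted p = 0.125 over 5 measures), and the number of genes with a read gave an exact p of 0.3.

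The falls took more reads away than the rises brought, and they were concentrated in fewer genes. Genes called lower held 3.13% ± 0.121 of the reads in mature libraries and 21.5% ± 1.50 in mononuclear libraries (SD, n = 3 each). Genes called higher held 13.3% ± 2.08 in mature and 1.73% ± 0.202 in mononuclear libraries. These shares describe genes called on the same libraries and are no separate evidence of direction. The 10 genes that lost the most accounted for 47.8% of the net loss of the called falls, and the 50 that lost the most for 72.2%. Among the called rises the 10 genes with the largest gain accounted for 15.1% of the net gain and the top 50 for 41.6%. Over all genes, called or not, gains and losses each summed to 24.3% of the reads. Of the 10 genes with the most reads in mature anthers 4 were also among the 10 of mononuclear anthers, and of the leading 100, 50 were shared.

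Single libraries contributed unevenly to the rises and to the falls. Mature replicate 3 was the lowest of the mature libraries in 850 of the 1342 called rises (63.3%), against 41.5% of all genes tested, and mature replicate 1 was the highest in 807 (60.1%), against 35.2%. The genes called higher held 11.1% of the reads of mature replicate 3 against 15.3% in mature replicate 1 and 13.4% in replicate 2. Mononuclear replicate 2 was the highest mononuclear library in 637 of the rises (47.5%), against 30.9% of all genes tested. Among the falls, mature replicate 3 was the highest mature library in 627 genes (46.0%), against 40.3% of all genes tested. Mononuclear replicate 2 was the highest mononuclear library in 559 of the falls (41.0%), so its excess over 30.9% was not particular to the rises. Leaving out each of the 6 libraries in turn gave 1183 to 1377 rises and 1256 to 1352 falls.

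The steepest rises started from no reads or almost none. Cla006625 had 40184, 28257 and 12032 normalised reads in mature replicates 1, 2 and 3 and no read in any mononuclear library, which is at least 25149-fold higher in mature anthers against a floor of 3 reads summed over the mononuclear libraries, both as normalised reads. Cla001626 had 13726, 12321 and 12178 in mature libraries and no mononuclear read, at least 11946-fold higher. Cla001627 had 12781, 10394 and 10193 in mature libraries and no mononuclear read, at least 10428-fold higher. The mature libraries lay close together for Cla001626 and Cla001627, and spread more than 3-fold for Cla006625. Whether reads were shared between genes with similar sequence could not be examined from the table. The floors cover counting error only.

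The other 3 of the steepest rises had reads in mononuclear replicate 2 and in neither of the other mononuclear libraries. Cla002736 had 22467, 20214 and 18822 normalised reads in mature libraries, against 0, 9.02 and 0 in mononuclear replicates 1, 2 and 3 (log2 fold change 13.21 ± 0.81, SE, limma adjusted p = 7.59e-07). Cla004436 had 46119, 36179 and 31088 in mature libraries, against 0, 80.0 and 0 in mononuclear libraries (13.07 ± 1.31, limma adjusted p = 2.11e-05). Cla019426 had 63651, 51458 and 14523 in mature libraries, against 0, 114 and 0 in mononuclear libraries (12.86 ± 1.49, limma adjusted p = 5.69e-05). In all 3 genes every mature library lay far above every mononuclear one. Without mononuclear replicate 2 the mononuclear level of each was 0 and the fitted log2 fold changes were 14.32, 15.19 and 15.15, which depend on the pseudocount. Without mononuclear replicate 1 or 3 those of Cla004436 and Cla019426 were 12.02 and 11.72, and without mature replicate 3 that of Cla019426 was 13.52. Mature replicate 3 was the lowest mature library in all 6 of the steepest rises.

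**Figure D2:**
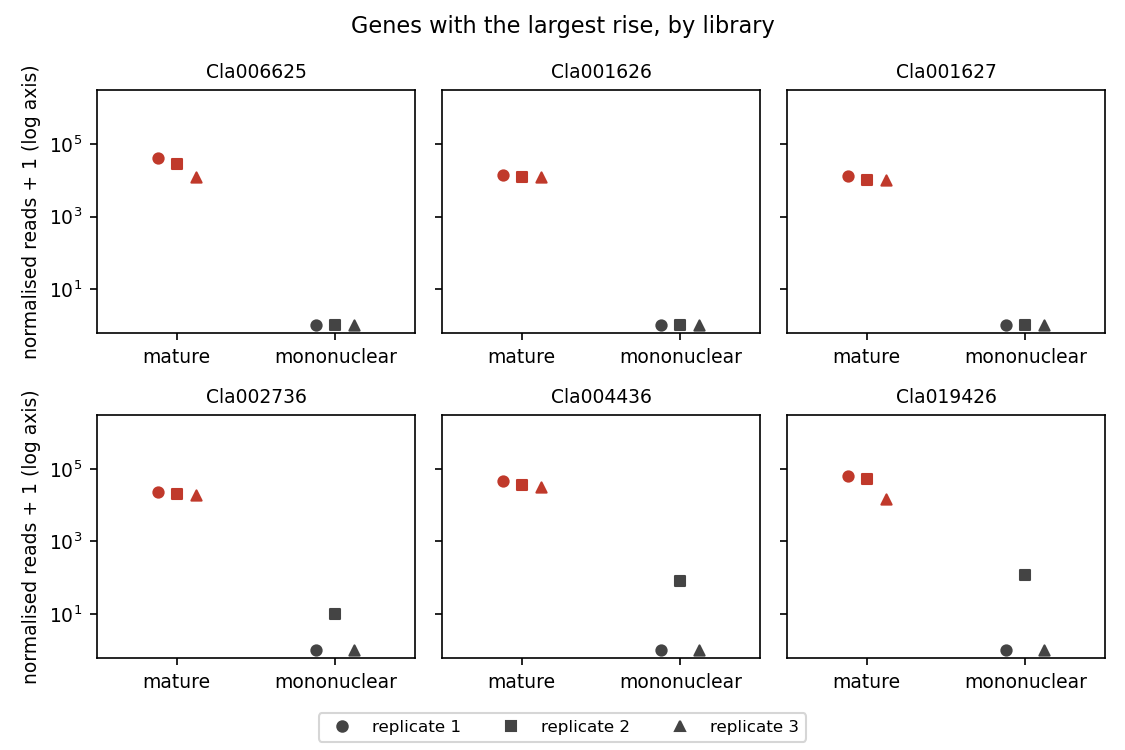
Normalised reads + 1 on a log axis in each mature library (red, left) and each mononuclear library (dark grey, right) for the 6 genes with the largest called rise, with 1 symbol shape per replicate. The lowest mature value, 10193 in Cla001627, lies far above every mononuclear one, and the mononuclear reads of Cla002736, Cla004436 and Cla019426 are in replicate 2.

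The 4 called rises that gained the most reads were already present at a low level in mononuclear anthers. Cla000032 had 182512, 152233 and 120701 normalised reads in mature libraries and 461, 7494 and 261 in mononuclear libraries (log2 fold change 7.27 ± 0.94, SE, limma adjusted p = 0.000135). Cla009288 had 169739, 119084 and 146062 in mature libraries and 3448, 13545 and 5636 in mononuclear libraries (4.48 ± 0.38, limma adjusted p = 5.69e-06). Cla012729 had 168203, 130368 and 92188 in mature libraries and 1115, 8200 and 1344 in mononuclear libraries (5.77 ± 0.57, limma adjusted p = 1.89e-05). In each of them mononuclear replicate 2 was the highest mononuclear library, and the stages did not overlap. Cla005213 showed the same library pattern, with 145805, 109023 and 107447 in mature libraries and 31.8, 6592 and 56.8 in mononuclear libraries (9.01 ± 1.64, limma adjusted p = 0.00141). Without mononuclear replicate 2 the log2 fold changes were 8.75 for Cla000032, 6.69 for Cla012729 and 11.42 for Cla005213, while Cla009288 moved to 5.02. Without mononuclear replicate 3 that of Cla000032 was 6.33, and for Cla005213 it was 8.01 without mononuclear replicate 3 and 7.60 without replicate 1.

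The steepest falls began from many reads, which a log2 fall of this size requires. Cla021856 had 44.9, 22.6 and 36.1 normalised reads in mature libraries and 96193, 245294 and 162947 in mononuclear libraries (log2 fold change -12.16 ± 0.62, SE, limma adjusted p = 2.12e-07). Cla000029 had 9.76, 11.8 and 28.9 in mature libraries and 44963, 70040 and 46054 in mononuclear libraries (-11.68 ± 0.74, limma adjusted p = 8.25e-07). Cla006059 had 135, 53.1 and 350 in mature libraries and 356773, 518044 and 410302 in mononuclear libraries (-11.59 ± 0.85, limma adjusted p = 2.07e-06). Between 9.76 and 350 normalised reads thus remained in each mature library, and the mononuclear libraries differed among themselves by less than 3-fold. The log2 fold change of Cla006059 was -10.92 without mature replicate 2 and -12.27 without mature replicate 3.

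Cla021729 and Cla011495 fell to a similar extent, but their tetrad level was far below their mononuclear level. Cla021729 had 42.9, 33.4 and 92.8 normalised reads in mature libraries and 144513, 197734 and 133448 in mononuclear libraries (log2 fold change -11.55 ± 1.22, SE, limma adjusted p = 2.91e-05). Cla011495 had 69.3, 83.5 and 121 in mature libraries and 290203, 292860 and 201833 in mononuclear libraries (-11.49 ± 1.21, limma adjusted p = 2.91e-05). In tetrad libraries Cla021729 averaged 4418 ± 3622 and Cla011495 8183 ± 6611 (SD, n = 3), below the mononuclear level, whereas Cla021856 averaged 157708 ± 73178 and Cla000029 46319 ± 18862, within the range of their mononuclear libraries. The tetrad libraries of Cla006059 averaged 240517 ± 81503 and also all lay below its mononuclear ones, which averaged 428373 ± 82140. Cla006499 was the only gene of the 6 with no mature read. It had 0, 0 and 0 normalised reads in mature libraries and 1222, 3834 and 2248 in mononuclear libraries, at least 2445-fold lower in mature anthers against a floor of 3 reads summed over the mature libraries.

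**Figure D3:**
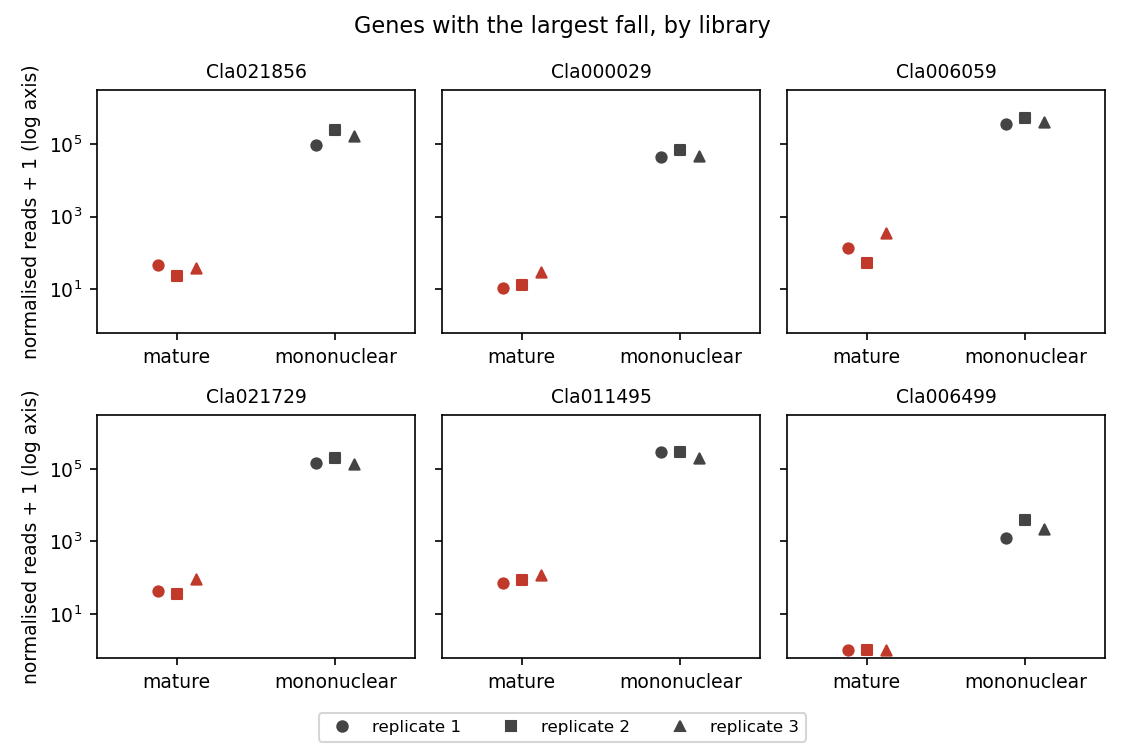
Normalised reads + 1 on a log axis in each mature library (red, left) and each mononuclear library (dark grey, right) for the 6 genes with the largest called fall, with 1 symbol shape per replicate. In 5 genes a residue of 9.76 to 350 normalised reads is seen in mature libraries, and Cla006499 has none.

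The largest losses of reads among called genes came from 4 genes. Cla010382 had 8906, 4008 and 14441 normalised reads in mature libraries and 1375195, 1460878 and 2253609 in mononuclear libraries, so that its share was 0.0153% ± 0.00945 of the reads of mature and 2.54% ± 0.632 of those of mononuclear libraries (log2 fold change -7.69 ± 0.51, SE, limma adjusted p = 1.10e-06). Cla019237 had 1595, 1035 and 8105 in mature libraries and 1216672, 1138591 and 1256946 in mononuclear libraries (-8.98 ± 0.92, limma adjusted p = 2.47e-05). Cla021099 had 6442, 2962 and 14567 in mature libraries and 432251, 540124 and 623602 in mononuclear libraries (-6.33 ± 0.44, limma adjusted p = 1.49e-06). In all 3, mature replicate 3 was the highest mature library and replicate 2 the lowest. Cla011600 had the widest mature spread, with 768, 136 and 4953 normalised reads in mature libraries and 477274, 518850 and 455781 in mononuclear libraries (-9.23 ± 0.92, limma adjusted p = 2.07e-05). Without mature replicate 3 the log2 fold change was -10.54 for Cla011600 and -9.87 for Cla019237, and without mature replicate 2 it was -7.95 and -8.39.

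Some of the most abundant genes did not pass the test, so the gains and losses of reads ranked above leave them out. Mean CPM went from 12715 in mononuclear to 21319 in mature libraries for Cla011778, and from 21711 to 10687 for Cla023393. Cla011778 had 1595182, 1526354 and 794960 normalised reads in mature libraries and 721032, 602549 and 1227663 in mononuclear libraries, and the stages overlapped (log2 fold change 0.62 ± 0.32, SE, limma adjusted p = 0.161). Cla023393 had 745675, 788352 and 425516 in mature libraries and 1382284, 1217823 and 1736356 in mononuclear libraries, which did not overlap (-1.18 ± 0.54, limma adjusted p = 0.112). A p above the threshold does not show that levels were equal, and the 95% interval of Cla023393 ran from -2.36 to -0.01.

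For other abundant genes the interval itself was narrow. Cla005669 averaged 515968 ± 119424 normalised reads in mature and 488122 ± 115927 in mononuclear libraries (SD, n = 3 each), with a 95% interval of the log2 fold change from -0.47 to 0.64. Cla010539 averaged 244731 ± 10785 in mature and 246367 ± 43805 in mononuclear libraries, with an interval from -0.38 to 0.39. Cla007101 averaged 141390 ± 12883 in mature and 135589 ± 15446 in mononuclear libraries, with an interval from -0.32 to 0.44. The mature and mononuclear libraries overlapped in each of them. This held for the deposited scaling. Quantile normalisation, which forces the top genes of all libraries to the same values, gave log2 fold changes of 1.29, 1.48 and 1.10 for Cla005669, Cla010539 and Cla007101, each past the threshold, and 1.39 for Cla011778.

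Few genes were off at one stage and on at the other. Off was set at 3 reads or fewer in each library of a stage, and on at 10 CPM or more in each. By these limits, 15 of 23440 genes (0.064%) were off in mononuclear and on in mature anthers, and 1 gene, Cla006499, went the other way (0.00427%). Of the 15 genes, 13 had no read in any mononuclear library. Their mature means ran from 14.3 CPM (Cla001043) to 435 CPM (Cla006625). The dikaryophase mean of each was 12.9% to 23.2% of its mature mean, so all 15 were already present then. In tetrad libraries 10 of them had no read, and none exceeded 8 reads in a library. The ID numbers included a consecutive pair in Cla001626 and Cla001627, and Cla003643, Cla003644 and Cla003646 lay close together, but their positions in the genome are not given by the table. The count of 15 was set by a single library: without mononuclear replicate 2 it was 61, while leaving out any other library gave 15 to 18. The single gene lost became 2 without mature replicate 1 or 3 and 3 without mononuclear replicate 1.

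The dikaryophase libraries lay between the mononuclear and mature libraries in both gene sets. Genes called higher held 1.55% ± 0.0206 of the reads of tetrad libraries and 1.73% ± 0.202 of those of mononuclear libraries, then 5.83% ± 0.780 at the dikaryophase and 13.3% ± 2.08 at maturity (SD, n = 3 each). Genes called lower held 17.7% ± 2.07, 21.5% ± 1.50, 8.87% ± 1.08 and 3.13% ± 0.121 in the same order of stages. By share of reads, the dikaryophase libraries had thus covered 68.7% ± 5.87 of the way from mononuclear to mature for the genes called lower, and 35.5% ± 6.75 for the genes called higher (SD over the 3 dikaryophase libraries). On this linear scale a gene that is midway in log2 has lost most of the reads it will lose and gained the smaller part of those it will gain, so the difference between both shares gives no order in time of rises and falls. The 3 dikaryophase libraries gave 64.8%, 75.5% and 65.9% for the falls and 33.3%, 43.1% and 30.2% for the rises, and the scale bears on both.

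**Figure D4:**
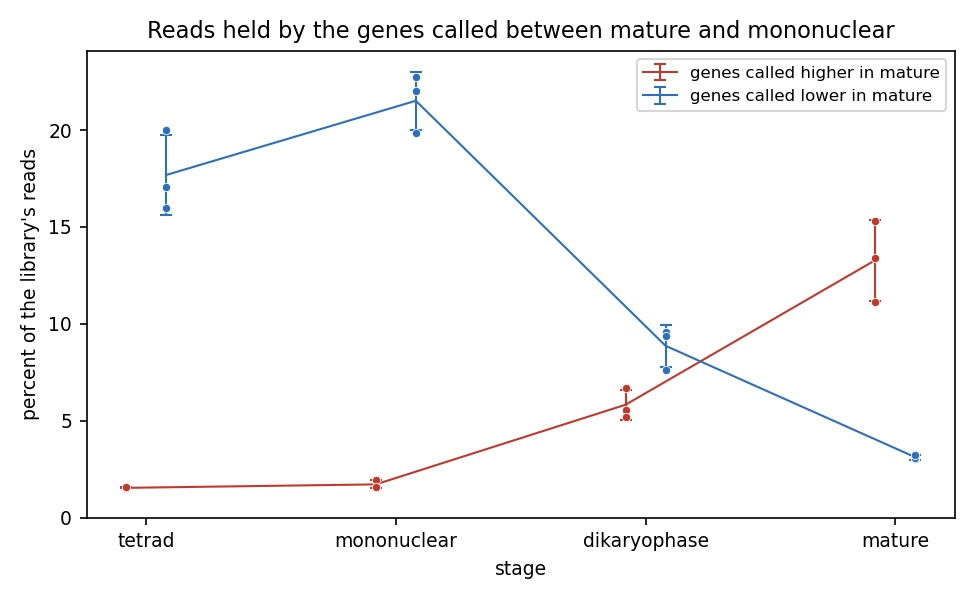
Percent of the reads of a library (vertical axis) held by the genes called higher (red) and called lower (blue) in mature against mononuclear anthers, at the 4 stages in order of development. Points are libraries, lines join stage means and bars are the SD of 3 libraries. The falling genes hold 17.7%, 21.5%, 8.87% and 3.13% along the stages, and the rising genes 1.55%, 1.73%, 5.83% and 13.3%.

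On the log2 scale, counted by gene, both sets were near the middle. The median gene called higher had covered 58.3% ± 8.35 of its log2 change at the dikaryophase, and the median gene called lower 48.0% ± 7.66 (SD over the 3 dikaryophase libraries). Dikaryophase replicate 3 was the least advanced for both, at 49.0% for the rises and 39.4% for the falls, and replicate 2 the most, at 65.1% and 54.1%. Replicate 1 lay between, at 60.8% and 50.4%. The ranges over libraries overlapped, but within each library the value was higher for the rises than for the falls. This difference was not tested. Taking stage means per gene, the dikaryophase level lay between the mononuclear and mature levels for most genes. Among the rises 520 lay nearer to the mononuclear level (38.7%) and 765 nearer to the mature level (57.0%), while 19 lay below the mononuclear and 38 above the mature level. Among the falls 612 (44.9%) lay nearer to the mononuclear level and 528 (38.7%) nearer to the mature level. A further 119 falls (8.73%) were higher at the dikaryophase than at the mononuclear stage and 104 (7.63%) were lower there than at maturity.

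**Figure D5:**
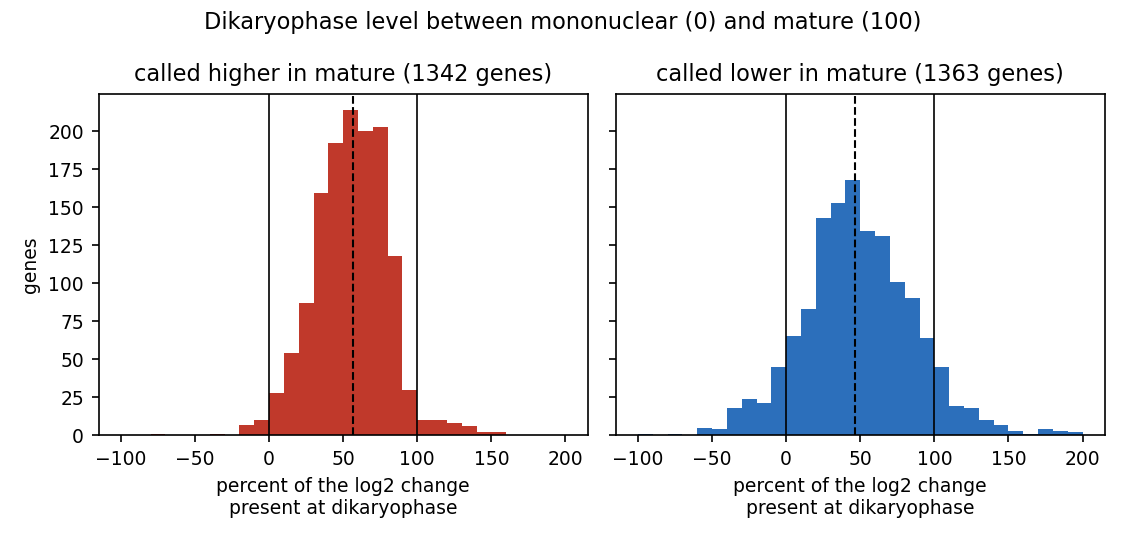
Percent of the log2 change from the mononuclear (0) to the mature level (100) that was present at the dikaryophase, with the number of genes on the vertical axis, for genes called higher (left) and lower (right). The dashed line is the median over genes, 56.4% for the rises and 46.6% for the falls, and 1 gene beyond the plotted range is counted in an end bar.

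The genes named above differed in their course. Cla021856 averaged 168145 ± 74686 normalised reads in mononuclear libraries, then 435 ± 361 at the dikaryophase and 34.5 ± 11.2 at maturity (SD, n = 3 each). Cla010382 kept more of its reads at the dikaryophase, and the 3 stages gave 1696560.5 ± 484316, then 385999 ± 198843 and lastly 9118 ± 5220. Cla009288, a rising gene, averaged 7543 ± 5312 in mononuclear libraries, then 77664 ± 15539 and lastly 144961 ± 25345. Cla004436, also rising, had 26.7 ± 46.2, 6964 ± 3754 and 37795 ± 7645 along the same stages.

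A direct test asked whether the dikaryophase level departed from the midpoint of the mononuclear and mature levels on the log2 scale. This contrast shares its libraries with the main one but is orthogonal to it in a balanced design. By the same threshold 66 genes lay above the midpoint (0.377% of genes tested) and 75 below it (0.429%). Of the 66 genes, 23 had been called higher and 30 lower in mature anthers, and 13 were not called. Of the 75 genes, 66 had been called lower, 1 higher and 8 were not called. The count rested on single libraries. It was 175 above and 76 below without mononuclear replicate 2, 20 and 26 without dikaryophase replicate 2, and 16 and 28 without dikaryophase replicate 3. Without mature replicate 1 it was 45 and 48, without mature replicate 2 it was 37 and 48, and the share above the midpoint, 46.8% with the deposited values, was 61.1% with library size as the only scaling and 79.2% with limma-voom.

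Among genes that passed this test with a mean of at least 10 CPM over the 9 libraries, the 3 furthest below the midpoint had dikaryophase means below their mature means. Cla004004 averaged 3944 ± 2078 normalised reads in mononuclear libraries, then 20.4 ± 9.18 at the dikaryophase and 44.2 ± 22.7 at maturity (SD, n = 3 each; departure -4.26 ± 0.40 on the log2 scale, SE, limma adjusted p = 0.00250). Cla017700 averaged 6949 ± 5402, 34.0 ± 4.19 and 106 ± 54.1 along the same stages (-4.38 ± 0.49, limma adjusted p = 0.00361). Cla018934 averaged 7243 ± 8291, 17.7 ± 8.78 and 19.6 ± 17.8 (-3.93 ± 0.74, limma adjusted p = 0.0285), with 16774 of its mononuclear reads in replicate 2 against 1705 and 3248 in the others. All 3 were highest in tetrad libraries, at means of 10659, 30758 and 78333. The 3 furthest above the midpoint, by the same limits, were Cla006625 (4.77 ± 0.76, limma adjusted p = 0.0135), Cla018772 (3.93 ± 0.65, limma adjusted p = 0.0156) and Cla001626 (3.75 ± 0.41, limma adjusted p = 0.00361). Cla018772 had 7874, 6713 and 1771 normalised reads in mature libraries and no mononuclear read. With no read at the mononuclear stage, the midpoint of these 3 depends on the pseudocount. None of the 6 departures passed limma-voom on the recovered reads, with adjusted p of 0.140 (Cla001626), 0.175 (Cla004004), 0.235 (Cla017700), 0.280 (Cla006625), 0.288 (Cla018772) and 0.652 (Cla018934). The lowest adjusted p that each reached under any alternative was 0.000176, 0.000312, 0.000427, 0.00890, 0.0102 and 0.00246 in that order. Without dikaryophase replicate 2 the calls of Cla006625, Cla018772 and Cla018934 were lost, and without dikaryophase replicate 3 those of Cla018772 and Cla018934, while the departures of Cla006625 and Cla001626 were then 5.62 and 4.44. The call of Cla018934 was also lost without dikaryophase replicate 1 and without mature replicate 2.

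The tetrad level, which entered the filter and the shared spread but not the fold changes, is described for the rising and the falling genes. Among the 1342 called rises the tetrad mean was below both the mononuclear and the mature mean in 793 (59.1%), between them in 528 (39.3%) and above both in 21 (1.56%). Among the 1363 called falls it was above both in 612 (44.9%), between them in 571 (41.9%) and below both in 180 (13.2%). Of the 4 called falls that lost the most reads, Cla021099 averaged 546760 ± 138947 normalised reads in tetrad and 531993 ± 95934 in mononuclear libraries. By contrast, Cla019237 averaged 11173 ± 8592 in tetrad libraries against 1204069.7 ± 60176 in mononuclear ones. The median tetrad minus mononuclear difference was -0.18 on the log2 scale over the rises and -0.15 over the falls. These counts of means carry no test, and shares over all genes tested are not given beside them.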

How the data were processed

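The deposited table holds a log2 value per gene ID and library from the authors. Not given in the sources used here are the aligner, counter, genome build, annotation and strand setting, so genes that overlap or have close copies are uncertain. Undoing the log2 and subtracting the pseudocount of 1 gave, for 100% of values, whole multiples of 1 step per library (tolerance 0.01 reads), so reads were recovered and CPM computed from them. A gene was kept when 3 of the 12 libraries reached 1 CPM. Limma (3.58.1, R 4.3.3) was fitted to the deposited log2 values with a mean per stage over 12 libraries, 8 residual degrees of freedom and trended variance moderation, with Benjamini-Hochberg adjustment over the 17484 genes. Fold changes are differences of mean log2(normalised reads + 1), which understate changes of low genes. The fit was tested on simulated counts. Alternatives covered scaling, filter, pseudocount, thresholds, limma-voom, a replicate block and each library left out.

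Named genes were, among called genes, the 6 largest rises and falls without overlap of stages and with at least 10 CPM. The 4 largest gains and losses of CPM were also taken among called genes only. Further named genes were the 3 most abundant per stage and the 3 most abundant with an interval within -1 and 1. The last were the 3 largest departures each way among genes called against the midpoint with at least 10 CPM, and the 2 most abundant genes turned on or off. Cla001043 and the genes with neighbouring IDs were chosen after their values were seen. The comparison, the lists and the rules were chosen with earlier results of these data known. Replicate numbers in the labels were not shown to pair libraries. Gene lists by function and cell type markers were not computed, as the table pairs no IDs with names.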

Additional observations from a re-analysis of the deposited data

How the results depend on the processing

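All 24 called genes named above kept their call in each of 19 alternatives, with adjusted p up to 0.0425. Most were picked for large changes, and adjusted p alone can lose no call, so this does not speak for all calls. Of all 2705 calls, 86.9% to 90.8% were kept when 1 library was left out, and 96.4% under limma-voom. An adjusted p under 0.01 kept 82.7%, the filter of 5 CPM 77.8% and a log2 threshold of 2 only 48.2%. Counts of rises and falls were within 1.5 times of 1342 and 1363 under other scalings, filters, pseudocounts, an adjusted p under 0.01, limma-voom on recovered reads (1337 and 1310) and the 6 libraries alone (1277 and 1247). They were 2980 and 3016 with adjusted p alone while requiring a log2 fold change of 2 gave 707 and 597. Scaling by library size alone moved the median log2 fold change over all genes to 0.13, and 57.5% of called genes rose in place of 49.6%. Count-model tests of other tools were not run. Leaving out 1 library gave 1183 to 1377 rises and 1256 to 1352 falls. Same-numbered mature and mononuclear libraries deviated from their stage means with correlations of -0.11, 0.03 and 0.16, which does not pair them, and only replicate 3 correlated best with its own number. The replicate block gave 1349 rises and 1364 falls, and 80 genes above and 87 below the midpoint.

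Departures from the midpoint, 66 above and 75 below, were the least stable. The numbers were 102 above with library size only, 118 and 31 with limma-voom, 105 and 151 with quantile normalisation, 114 and 143 with adjusted p alone, 15 and 23 with adjusted p under 0.01, 25 and 39 when a departure of 2 was required, and 203 above without both mononuclear replicate 2 and mature replicate 3. Leaving out 1 library gave 16 to 175 above and 26 to 110 below. The causes were not tested.

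Genes turned on numbered 27 and genes turned off 4 with off at 10 reads or fewer, and 33 and 22 with on at 1 CPM or more. Leaving out 1 library gave 15 to 61 turned on and 1 to 3 turned off. The difference in the share of the most abundant genes was -5.95 percentage points for 10 genes (-6.38 to -5.20 with 1 library left out) and -8.18 for 100 genes. Genes called at a log2 fold change of 2 held, when higher, 9.55% of mature and 0.401% of mononuclear reads, and, when lower, 0.674% and 15.8%. Chosen after seeing the data, leaving out 1 of 9 libraries moved the part of the change in read share present at the dikaryophase to 31.7% to 38.9% for rises and 65.4% to 70.7% for falls, and that of the log2 change to 54.9% to 63.0% and 44.9% to 52.2%.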
